A study of Rattus norvegicus with 4 samples.

Results

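Arterial endothelial cells of rat subcutaneous fascia were chosen from single-cell RNA-seq by the unique molecular identifiers (UMIs, each standing for 1 captured RNA molecule) that a cell held for named genes. Cells were kept when they had at least 500 detected genes and at most 20% of their UMIs from mitochondrial genes. An arterial cell then had at least 5 UMIs of the endothelial genes Pecam1, Cdh5, Ptprb, Adgrl4 and Emcn in sum and at least 2 UMIs of the arterial genes Gja5, Sema3g and Bmx in sum. It also had fewer than 2 UMIs of the venular genes Selp, Sele and Ackr1, no UMI of the leukocyte gene Ptprc, and fewer than 3 UMIs of the mural genes Rgs5 and Myh11. This left 77 cells of 13820 kept fascia cells and of 37722 kept cells in all 4 libraries. Fascia replicate 1 gave 42 of them and fascia replicate 2 gave 35, which was 0.617% (95% exact binomial interval 0.445 to 0.833) and 0.499% (0.348 to 0.694) of the kept cells of each library.

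The study set rat skin beside the subcutaneous fascia, the connective tissue under it (at the abdominal midline, per its title), with 2 libraries of each tissue. All groups were labelled wild-type, and strain, age and sex are not given in the sources used here. Both tissues were minced, digested with collagenase type 4, elastase and DNase I, cleared of red blood cells by lysis and of dead cells by a removal kit, and sequenced from the 3′ end of the RNA. The labels do not say whether the 2 fascia libraries came from separate animals. The tests set aside level differences between these libraries, so p-values measure only how far differences between cell groups varied from library to library. That spread was estimated partly over all genes and may be technical.

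Arteries, capillaries and veins are lined by endothelial cells that differ in the genes they use. Arterial cells are known for Notch signalling, in which the ligands Dll4, Jag1 and Jag2 on 1 cell activate Notch1 and Notch4 on its neighbour and raise Hey and Hes repressors, for the connexins Gja4 and Gja5 that couple cells electrically, and for elastic matrix in the vessel wall. Venous identity is set by the nuclear receptor Nr2f2, which holds Notch signalling down, and the venules are where leukocytes leave the blood with the help of adhesion molecules.

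Because the rule used Gja5, Sema3g and Bmx, their levels describe the cells and support nothing. Levels are given as CPM, the UMIs of a gene in a class of cells of a library scaled to a class total of 1000000. Bmx, a cytoplasmic tyrosine kinase of endothelium, stood at 158 and 171 CPM in fascia replicates 1 and 2, against 7.13 and 5.84 in the endothelial cells that passed neither the arterial nor the venular gate (called remaining endothelial cells here) and 4.57 and 5.15 in venular cells. Gja5, a gap junction protein, stood at 89.8 and 112 against 2.17 and 3.09 in remaining and 0.351 and 0.386 in venular cells, and Sema3g, a secreted semaphorin, at 44.9 and 53.3 against 6.82 and 4.12 and against 2.46 and 1.67. Bmx was the gene that brought most cells in: 33 of 42 and 23 of 35 cells had a UMI of it, against 20 and 21 cells with Gja5 and 17 and 13 with Sema3g. A lone gene carried 20 and 16 cells through the gate, while 16 and 16 cells had 2 of the 3 genes and 6 and 3 cells had all of them. The gate was passed narrowly by many cells: 22 and 10 cells had exactly 2 arterial UMIs, 6 and 15 had 3, and 14 and 10 had 4 or more, with a maximum of 11 in each library. Just outside it, 53 and 38 otherwise alike cells had 1 arterial UMI, at a median depth of 12714 and 9150 UMIs, beside 13117.5 and 10596 in the cells with exactly 2.

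These promoters are shown because they belong to the gene that brought most cells in and to a connexin and a matrix gene described among the results. The sequences run from 250 bases before to 50 after the annotated start in RefSeq's rat assembly GRCr8, at chrX:33858878-33859177 on the + strand for Bmx, chr5:144920275-144920574 on the - strand for Gja4 and chr6:126742657-126742956 on the - strand for Fbln5. Capitals mark the letters TGGGAA, the core that the Notch partner RBPJ binds, and ACAAT, a core bound by SOX factors, with the reverse complements TTCCCA and ATTGT.
Bmx: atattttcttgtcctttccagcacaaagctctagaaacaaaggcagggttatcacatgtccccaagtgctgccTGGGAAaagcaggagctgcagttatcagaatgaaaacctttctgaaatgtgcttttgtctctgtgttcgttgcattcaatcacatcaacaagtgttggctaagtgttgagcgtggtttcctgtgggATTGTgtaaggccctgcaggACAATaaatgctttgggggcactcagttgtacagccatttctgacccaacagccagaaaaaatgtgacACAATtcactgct
Gja4: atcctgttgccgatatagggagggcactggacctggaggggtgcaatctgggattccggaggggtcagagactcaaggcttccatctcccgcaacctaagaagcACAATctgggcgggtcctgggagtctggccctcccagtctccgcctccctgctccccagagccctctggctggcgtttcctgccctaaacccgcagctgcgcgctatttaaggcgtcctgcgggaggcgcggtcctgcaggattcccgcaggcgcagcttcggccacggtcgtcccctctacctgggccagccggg
Fbln5: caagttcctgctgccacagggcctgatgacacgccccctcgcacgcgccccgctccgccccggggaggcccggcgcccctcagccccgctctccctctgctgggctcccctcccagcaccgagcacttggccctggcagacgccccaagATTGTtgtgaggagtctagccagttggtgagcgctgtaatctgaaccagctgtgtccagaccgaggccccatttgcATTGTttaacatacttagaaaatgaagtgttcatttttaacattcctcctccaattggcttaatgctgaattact
The Bmx window held 1 RBPJ core and 3 SOX cores, the Gja4 window 1 SOX core and the Fbln5 window 2 SOX cores. These are short motifs: of 27457 promoters of the same length, 25.1% held the RBPJ core and 33.1% the SOX core. Among the 42 genes called higher in arterial than in remaining endothelial cells, 34 had a promoter in the table, and 8 of these (23.5%) held the RBPJ core and 9 (26.5%) the SOX core, near the shares of all promoters. A match is a description of the letters in the window and shows no binding.

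The cells were well sampled. They held a median of 9365 UMIs (range 1125 to 45322) in fascia replicate 1 and 8623 (3747 to 29518) in fascia replicate 2, and a median of 3174.5 and 3262 genes, with 4.64% and 4.36% of UMIs from mitochondrial genes. Summed, they gave 556776 and 375026 UMIs, against 3226293 and 2909724 for the 275 and 311 remaining endothelial cells and 2845725 and 7762760 for the 198 and 529 venular cells. A further 8 and 19 endothelial cells passed both the arterial and the venular threshold and entered no class. A doublet caller marked 1 arterial cell in fascia replicate 1 and none in fascia replicate 2. The 4 libraries shared 16 to 35 kept barcodes per pair, and the barcode of 1 arterial cell of fascia replicate 2 was also seen in skin replicate 2.

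As a share of the endothelial cells of the 3 classes and those that passed both thresholds, arterial cells were 8.03% (95% exact binomial interval 5.85 to 10.7) and 3.91% (2.74 to 5.4) in fascia. In skin the same gate gave 6 and 21 cells, or 2.58% (0.951 to 5.52) and 7.47% (4.69 to 11.2). A gate of 2 UMIs lets in more cells where cells are deeper, so each cell was also thinned to 3000 UMIs. The shares were then 2.67% (1.47 to 4.44) and 1.64% (0.899 to 2.74) in fascia and 1.84% (0.381 to 5.28) and 3.09% (1.01 to 7.06) in skin. The intervals, which cover counting error only, overlapped between all 4 libraries, so no order of the tissues was detectable at this depth.

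Markers of other cell types were low in the arterial cells beside fibroblast genes. Of 12 mural markers, 7 were detected in each library, with a summed level of 39.5 and 48.0 and with Cnn1, Cspg4 and Ndufa4l2 at 0 in both. Of 7 lymphatic markers 3 were detected, with a summed level of 30.5 and 42.7 against 28.2 and 21.0 in remaining endothelial cells, and Prox1, Ccl21, Mmrn1 and Reln were at 0. Macrophage genes, 12 and 11 of 12 detected, summed to 98.8 and 163 against 112 and 188 in remaining cells, and Schwann cell genes, 3 and 2 of 6 detected with Sox10 at 0, to 64.7 and 58.7 against 93.3 and 75.6. All 12 fibroblast genes were detected, with a summed level of 2850.3 and 5034, against 3184 and 3064 in remaining endothelial cells, 4061 and 543 in venular cells and 64438 and 75255 in fibroblasts. In 1 of 42 and 1 of 35 arterial cells the fibroblast gate genes Col1a1, Col3a1 and Pdgfra alone summed to at least 10 UMIs. Such cells were 14 of 275 and 15 of 311 among remaining endothelial cells.

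Against the remaining endothelial cells of the same libraries, arterial cells were higher in a small set of genes led by Cdc45, Egfl8, Slc35f1 and Slc8a1, in matrix genes (Fbln5, Fbln2, Eln, Sulf1), in the growth factors Vegfc and Igf2 and in the connexin Gja4. They were lower in Socs3, Rgs16, Mt2A, Angpt2 and a group of immediate early and stress genes. UMIs were summed per library and class and tested with edgeR's quasi-likelihood test, with the library as a block and Benjamini-Hochberg adjustment over the 11303 genes tested, the genes of the gates left out. At an adjusted p under 0.05, 57 genes (0.504%) were called, 42 (0.372%) higher and 15 (0.133%) lower in arterial cells, and the median log2 change of all genes was -0.02. Without the library block the same test called 23 genes. The arterial group was cut by 3 genes in the same cells, so the test concerns the other genes of cells grouped in that way.

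Cdc45 names a factor of the machinery that loads DNA replication forks. Its level was 1232 and 1664 CPM in arterial cells, 236 and 115 in remaining endothelial cells, 34.8 and 20.5 in venular cells and 0.344 and 0.206 in fibroblasts. Arterial and remaining libraries did not overlap, which was a condition for naming a leading gene. The log2 change against remaining cells was 3.10 (SE 0.322, edgeR adjusted p = 0.0114). None of the 9 genes of the cell cycle list that were tested was called in either direction. The values belong to the gene identifier ENSRNOG00000050071, the symbol being carried by another identifier as well. In RefSeq's GRCr8 its protein-coding neighbours are Ufd1 and Cldn5, a tight junction gene of endothelium, and RNA of a neighbouring or overlapping transcript counted under Cdc45 cannot be told apart in these counts.

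**Figure D1:**
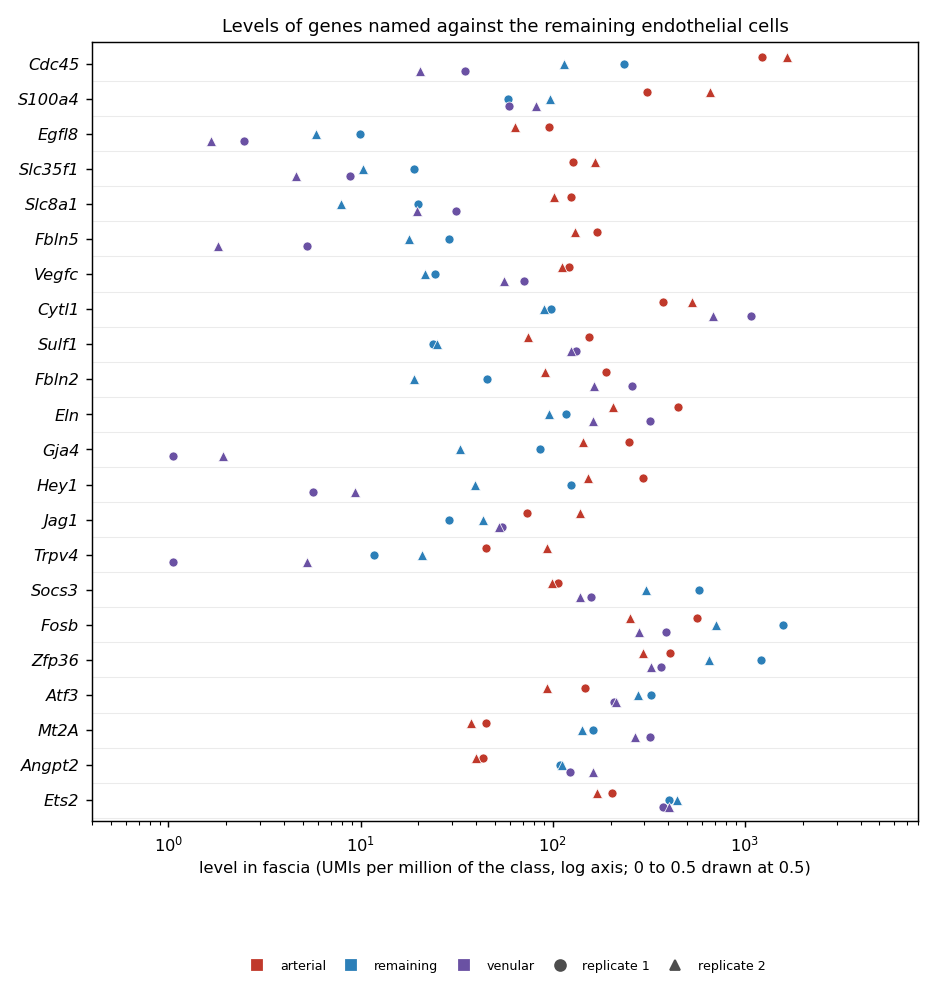
Levels of the genes named in the comparison with remaining endothelial cells, in CPM of the class on a log axis. Points are libraries (circles fascia replicate 1, triangles fascia replicate 2) and colours are classes. Cdc45 is at 1232 and 1664 in arterial cells against 236 and 115 in remaining cells, while Socs3 is at 106 and 98.7 against 580 and 305.

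Genes of less familiar role were among the largest changes. Egfl8, a secreted relative of the vessel protein Egfl7, was at 95.2 and 64.0 against 9.92 and 5.84 in remaining cells (log2 change 3.30, SE 0.286, edgeR adjusted p = 0.00848). Slc35f1, named as a solute carrier, was at 128 and 165 against 18.9 and 10.3 (3.30, SE 0.326, edgeR adjusted p = 0.00956). Slc8a1, the sodium-calcium exchanger, was at 124 and 101 against 19.8 and 7.90 (3.02, SE 0.273, edgeR adjusted p = 0.00848). Both arterial libraries lay above both remaining ones in each, which the rule for naming leading genes required.

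The calcium-binding protein S100a4 and secreted factors were higher as well. S100a4 was at 311 and 659 in arterial cells against 58.3 and 96.2 in remaining cells (log2 change 2.57, SE 0.171, edgeR adjusted p = 0.00419), and at 331 and 811 in fibroblasts. Vegfc, the ligand of the lymphatic receptor Flt4, was at 122 and 112 against 24.5 and 21.7 (2.30, SE 0.185, edgeR adjusted p = 0.00848). Igf2, a growth factor, was at 113 and 197 against 19.5 and 35.4 (2.44, SE 0.383, edgeR adjusted p = 0.0447), a call lost in 3 settings, at adjusted p of 0.0517 to 0.0759. Cytl1, a small secreted protein, was at 375 and 531 in arterial cells at 98.3 and 90.0 in remaining cells (2.23, SE 0.255, edgeR adjusted p = 0.0184) and at 1075 and 679 in venular cells. Nell1 (62.9 and 48.0 against 11.5 and 8.59) and the membrane protein Pllp (52.1 and 82.7 against 11.5 and 12.7) were called at log2 changes of 2.40 each. The Nell1 call was lost without fascia replicate 1 (edgeR adjusted p = 0.0837) and the Pllp call without fascia replicate 2 (0.264), in fits that kept the skin libraries to estimate the spread.

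Matrix genes of the elastic vessel wall were called on the higher side only. Of 24 tested genes of elastic fibre and vessel matrix, 3 were higher and none was lower, beside 0.372% and 0.133% of all genes tested. The median log2 change of the list was 0.33. Fbln5, a fibulin that guides elastin onto fibres, was at 171 and 131 against 28.8 and 17.9 (log2 change 2.66, SE 0.246, edgeR adjusted p = 0.00848). Fbln2, its relative, was at 190 and 90.7 against 45.3 and 18.9 (2.12, SE 0.207, edgeR adjusted p = 0.00956). Eln, elastin itself, was at 451 and 205 against 117 and 95.5 (1.51, SE 0.22, edgeR adjusted p = 0.0355). Sulf1, an enzyme that trims heparan sulfate and is counted in the arterial list, was at 154 and 74.7 against 23.9 and 25.1 (2.21, SE 0.279, edgeR adjusted p = 0.0214). Without fascia replicate 1 the calls of Eln (log2 change 1.06, edgeR adjusted p = 0.457) and Sulf1 (1.53, 0.177) were lost. All 4 genes are also made by fibroblasts here, Eln at 571 and 415, Fbln2 at 722 and 480, Sulf1 at 199 and 165 and Fbln5 at 110 and 116. Every endothelial cell with 10 or more UMIs of Col1a1, Col3a1 and Pdgfra was also left out, a step chosen after seeing the data. Then 202 genes were called, and 52 of the 55 original calls still tested were among them.

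The connexin Gja4, partner of Gja5 in arterial gap junctions and no part of the gate, was at 250 and 144 in arterial cells, 85.5 and 33.0 in remaining cells and 1.05 and 1.93 in venular cells. Arterial and remaining libraries did not overlap, with a log2 change of 1.75 (SE 0.268, edgeR adjusted p = 0.042). The Gja4 call was lost with cells thinned to 3000 UMIs (1.12, edgeR adjusted p = 0.101), with all 4 libraries in the fit (0.0716), at most 10% mitochondrial UMIs (0.0504) and no library block (0.241). The Notch pathway gave no call among 16 tested genes in this comparison, with a median log2 change of 0.45. Its ligand Dll4 was at 356 and 179 against 278 and 111 in remaining cells (log2 change 0.46, edgeR adjusted p = 0.32), Jag1 at 73.6 and 139 against 28.8 and 43.3 (1.48, 0.0619), and Jag2 at 138 and 221 against 78.1 and 104 (0.92, 0.0865). The Notch target Hey1 was at 296 and 152 against 124 and 39.5 (1.50, 0.183), and the ephrin Efnb2, the classical arterial partner of venous Ephb4, at 104 and 85.3 against 49.3 and 56.7 (0.83, 0.188). Both arterial libraries lay above both remaining ones for Jag1, Jag2, Hey1 and Efnb2 but not for Dll4. Some of these misses turned into calls in other settings. Jag1 passed in 7 of them, DESeq2 (1.50, adjusted p = 0.00519) and thinned cells (1.97, edgeR adjusted p = 0.00113) included. Hey1 passed in 5, thinned cells (1.50, edgeR adjusted p = 0.021) included, Jag2 in 4 with DESeq2 (0.93, adjusted p = 0.0483) among them, and Efnb2 in 1. The counts for Jag1 and Hey1 include the fit without fascia replicate 1 (1.63 and 1.90), whose spread came from the skin libraries.

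The arterial identity list, which leaves out the 3 gate genes, had 6 of 33 tested genes higher (Gja4, Fbln5, Vegfc, Eln, Sulf1 and Fbln2) and none lower. Of all genes tested 0.372% were higher and 0.133% lower. The median log2 change of the list was 0.55. Capillary genes (18 tested, median -0.49) and venous genes (19 tested, median -0.70) gave no call. Rgcc, a cell cycle regulator typical of capillaries, was at 580 and 280 against 1083 and 850 (log2 change -1.24, edgeR adjusted p = 0.0574). Gpihbp1, which anchors lipoprotein lipase in capillaries, was at 532 and 66.7 against 1059 and 551 (-1.68, 0.192), the arterial libraries lying far from each other and fascia replicate 1 close to the lower remaining library. Nr2f2 was at 19.8 and 16.0 against 56.7 and 102 (-2.09, 0.0512). Without fascia replicate 1 the log2 changes were -1.65 for Rgcc, -3.09 for Gpihbp1 and -2.71 for Nr2f2. That fit held 1 fascia library and took its spread from skin, so it does not measure the spread between fascia libraries. All 3 genes passed with thinned cells (-1.51 for Rgcc, -2.69 for Gpihbp1 and -2.89 for Nr2f2, edgeR adjusted p = 4.57e-05, 5.2e-06 and 0.021). They passed in 6, 5 and 9 settings in all, the fit without fascia replicate 1 counted. Nr2f2 was close to the threshold from either side, at 0.0488 with the other size factors and 0.0493 with all 4 libraries in the edgeR fit.

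Among vasoactive genes, the calcium channel Trpv4 was the 1 call of 30 tested, at 44.9 and 93.3 against 11.8 and 21.0 (log2 change 2.01, SE 0.323, edgeR adjusted p = 0.05 after rounding). That call was lost without fascia replicate 2 (1.89) and in other settings. Among them were marked doublets left out (1.85, edgeR adjusted p = 0.0637), at least 1000 genes per cell (1.99, 0.0551) and at most 10% mitochondrial UMIs (1.85, 0.0776). Klf2, the flow-induced transcription factor, was at 2099.6 and 2213 against 1676 and 1483, and Nos3, endothelial nitric oxide synthase, at 158 and 155 against 97.3 and 127. Neither passed the test (edgeR adjusted p = 0.393 and 0.497), nor did Edn1, the vasoconstrictor endothelin, at 34.1 and 98.7 against 27.9 and 32.3 (0.289).

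The genes lower in arterial cells included early response genes. Socs3, the feedback inhibitor of cytokine signalling, was at 106 and 98.7 against 580 and 305 in remaining cells (log2 change -2.12, SE 0.237, edgeR adjusted p = 0.0181). Fosb, an AP-1 subunit, was at 562 and 253 against 1576 and 703 (-1.50, SE 0.205, edgeR adjusted p = 0.0292), with fascia replicate 1 higher than 2 in both classes. Its classes did not overlap, which the rule for naming leading genes required. Zfp36, which degrades inflammatory mRNAs, was at 408 and 296 against 1212 and 649 (-1.40, edgeR adjusted p = 0.0331), and Atf3, a stress factor, at 147 and 93.3 against 324 and 279 (-1.35, 0.0355). Of 25 immediate early and heat shock genes tested, these 3 were lower, none was higher, and the median log2 change was -0.83. Of all genes tested 0.133% were lower. Other AP-1 genes had wide remaining values and were not called: Fos was at 939 and 677 against 2729 and 886 (edgeR adjusted p = 0.192) and Jun at 869 and 813 against 2857 and 1158 (0.123). Summed over the list, arterial cells held 9889 and 9650, remaining cells 22416 and 12394 and venular cells 9803 and 8812. The part of tissue handling in these levels was not tested. Without fascia replicate 1 the Zfp36 call was lost (-1.18, edgeR adjusted p = 0.0786), and without fascia replicate 2 the Atf3 call (-1.17, 0.15). The Atf3 call was also lost with the stricter gate of 3 arterial UMIs (-0.67, edgeR adjusted p = 0.402) and with thinned cells (-0.95, 0.162).

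**Figure D2:**
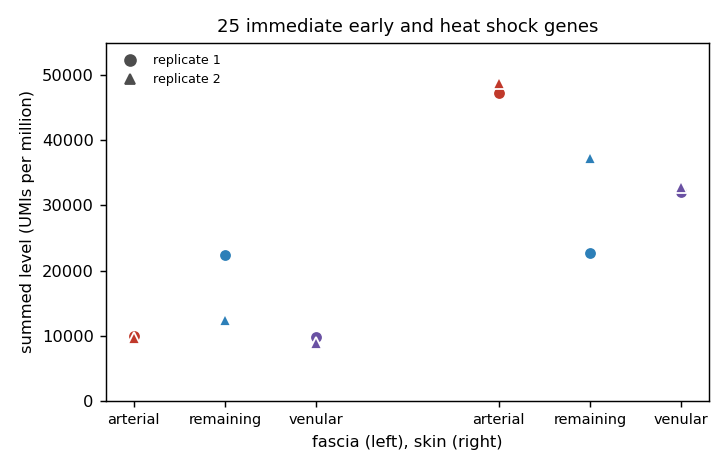
Summed level of 25 immediate early and heat shock genes, in CPM of the class, for 3 endothelial classes of fascia (left) and skin (right), circles for replicate 1 and triangles for replicate 2. Fascia arterial cells are at 9889 and 9650 and skin arterial cells at 47302 and 48764.

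Other genes lower in arterial cells served signalling and metal binding. Mt2A, a metallothionein, was at 44.9 and 37.3 against 162 and 143 (log2 change -1.92, SE 0.181, edgeR adjusted p = 0.00848), and Rgs16, which shortens G protein signals, at 35.9 and 24.0 against 144 and 101 (-2.04, SE 0.277, edgeR adjusted p = 0.0292). Angpt2, the destabilising ligand of the Tie receptor system, was at 43.1 and 40.0 against 109 and 112 (-1.43, edgeR adjusted p = 0.042), the co-chaperone gene Bag3 at 89.8 and 117 against 242 and 253 (-1.31, 0.0214), the transcription factor Ets2 at 203 and 171 against 404 and 446 (-1.21, 0.0292) and the stress gene Gadd45g at 178 and 163 against 360 and 285 (-0.96, 0.05 after rounding). In each of these 6 genes both arterial libraries lay below both remaining ones, a condition of the rule by which they were named. The calls of Angpt2, Bag3 and Gadd45g were lost without either fascia library in turn, and that of Ets2 without fascia replicate 2. With thinned cells the calls of Angpt2 (-1.36, edgeR adjusted p = 0.125) and Gadd45g (-0.90, 0.0971) were lost. Gadd45g was lost in further settings, the stricter gate (-1.47, edgeR adjusted p = 0.0603) and all 4 libraries in the fit (-0.96, 0.247) among them. Slit3, a guidance ligand that mural cells carried at 657 and 796, had 1 UMI in each arterial library against 74 and 165 in remaining cells, a ratio of 18.1 (exact interval 4.97 to 151, counting error only). Its call (edgeR adjusted p = 0.0249) was lost without fascia replicate 2 (0.212) and with marked doublets left out (0.181).

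**Figure D3:**
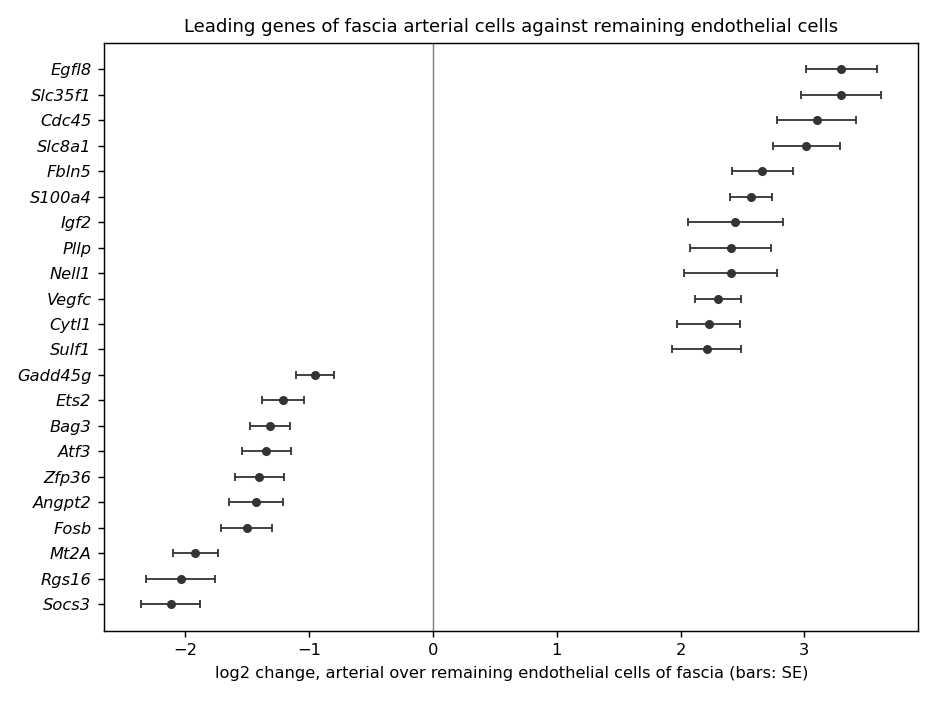
Log2 change of the leading genes between arterial and remaining endothelial cells of fascia, with bars for a standard error derived from the edgeR test on 2 libraries. The 12 genes above 0 run from 2.21 (Sulf1) to 3.30 (Egfl8) and the 10 below 0 from -2.12 (Socs3) to -0.96 (Gadd45g).

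Cell by cell, the leading genes were spread over the arterial cells unevenly. After thinning to 3000 UMIs, Cdc45 had a UMI in 24 of 34 arterial cells (70.6%) of fascia replicate 1 and 30 of 35 (85.7%) of fascia replicate 2. The shares were 21.2% and 12.6% in remaining endothelial cells and 0.0428% and 0.163% in fibroblasts. Fibroblasts were gated to hold no UMI of Pecam1, Cdh5, Ptprb, Adgrl4 and Emcn. Their shares can therefore lie below the level of free endothelial RNA and do not measure it. Gja4 was seen in 41.2% and 28.6% of arterial cells, 17.4% and 7.91% of remaining cells and 0.0428% and 0.327% of fibroblasts. The Notch target Hey1 was seen in 52.9% and 31.4% against 26.1% and 9.35%, with 0.171% and 0.327% in fibroblasts. For Fbln5 and S100a4 fibroblasts give no background, since they make these genes. Fbln5 was seen in 32.4% and 25.7% of arterial cells against 5.39% and 4.68% of remaining cells, and S100a4 in 35.3% and 57.1% against 10.8% and 15.5%. The venous factor Nr2f2 was seen in 2.94% and 2.86% of arterial cells, in 12.03% and 15.1% of remaining cells and 52.6% and 55.5% of venular cells. These shares come from cells of equal depth, and median depths before thinning were 9365 and 8623 in arterial cells and 16585 and 15651 in fibroblasts.

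The strength of the gate signal went with the level of some other genes, though not of all. In endothelial cells that met every other part of the rule, grouped by 0, 1, 2, 3 or at least 4 UMIs of Gja5, Sema3g and Bmx, Cdc45 was at 174, 449, 542, 1767 and 2360 in fascia replicate 1 and at 102, 323, 1177, 1684 and 2166 in fascia replicate 2. S100a4 was at 46.9, 132, 145, 663 and 533, and at 93.9, 185, 191, 775 and 1016. Gja4 was at 72.5, 128, 187, 417 and 326, and at 23.7, 90.0, 82.9, 133 and 225. The cells with 1 UMI, outside the gate, thus lay between those with 0 and the strongest arterial cells for these 3 genes in both libraries. Nr2f2 went the other way, from 57.1 to 0 UMIs in fascia replicate 1 and from 114 to 8.99 in fascia replicate 2. Some genes showed no steady course. Esm1 was at 537, 396, 307, 196 and 908 in fascia replicate 1 and at 140, 40.0, 66.3, 34.9 and 80.9 in fascia replicate 2. The bins inside the gate hold few cells (22, 6 and 14, and 10, 15 and 10), and the 6 cells of fascia replicate 1 with 3 arterial UMIs were shallow, with a median of 2288.5 UMIs. These values are a description, with no test.

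**Figure D4:**
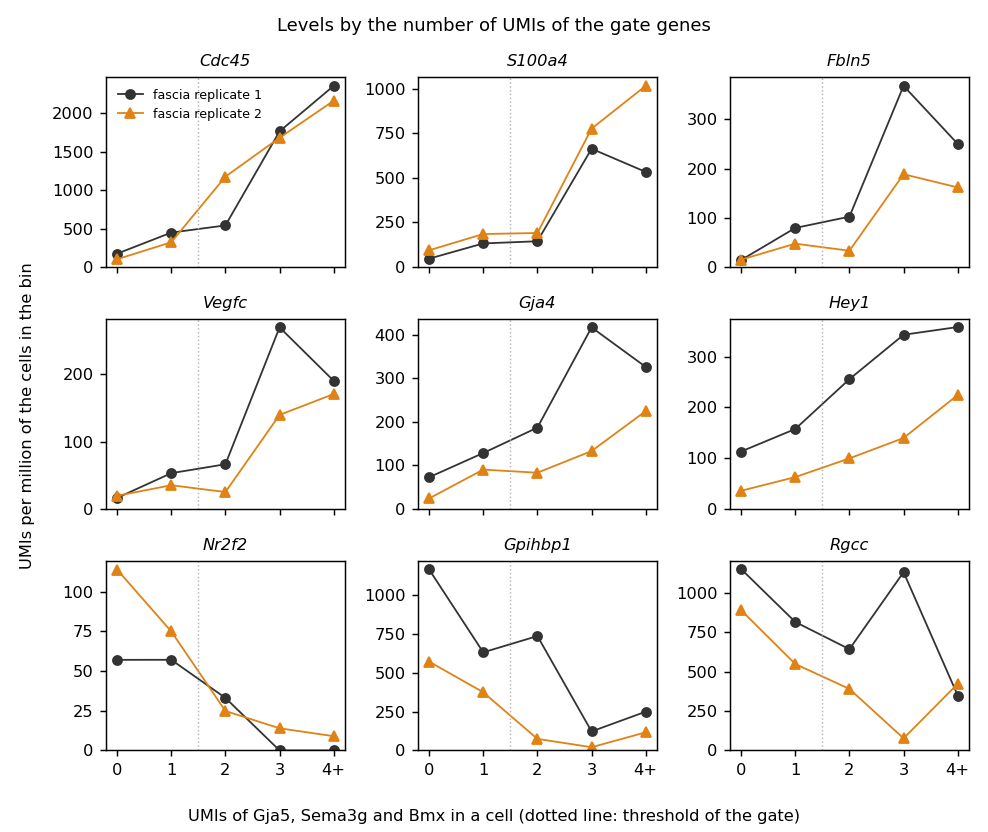
Level of 9 genes, in CPM of the cells in a bin, by the number of UMIs of Gja5, Sema3g and Bmx in a cell, for both fascia libraries. The dotted line marks the threshold of the arterial gate, and Cdc45 is at 174 and 102 in cells with no arterial UMI and at 2360 and 2166 in cells with 4 or more.

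Which of the 3 gate genes a cell carried also went with other levels, in small groups of 20 and 17 cells with Bmx plus Gja5 or Sema3g, 13 and 6 with Bmx alone and 9 and 12 without Bmx. S100a4 was at 504 and 948 in the cells with Bmx plus another gate gene, at 70.2 and 137 in those with Bmx alone and at 47.2 and 581 in those without Bmx. Gja4 was at 368 and 193, at 96.5 and 37.4, and at 94.4 and 143 in the same order. Plvap, the protein of fenestral diaphragms in capillaries and venules, was highest in the cells without Bmx, at 6796 and 2772, against 4219.6 and 835 with Bmx plus another gate gene and 3036 and 474 with Bmx alone. The chemokine Cxcl12 was likewise at 4011 and 3008 without Bmx, against 1796 and 1783 and against 1272 and 1721. The order for Plvap and Cxcl12 was the same in both libraries in that the cells without Bmx were highest. The libraries also differed from each other within the arterial cells, Esm1 being at 498 and 58.7, Gpihbp1 at 532 and 66.7, Igfbp3 at 519 and 101 and Plvap at 4566 and 1371 in fascia replicates 1 and 2.

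Against venular endothelial cells, which have at least 2 UMIs of Selp, Sele and Ackr1 and are deeper, at a median of 11772 and 12147 UMIs, more genes passed the test. Arterial cells were higher in the Notch genes Dll4, Jag2, Notch1, Notch4, Hey1 and Nrarp, in the connexin Gja4 and in the channels Trpv4, Kcnn4 and Kcnj2, and lower in Nr2f2, Vwf, Icam1 and Vcam1. With the same test, 757 of 11303 genes (6.7%) were called, 433 (3.83%) higher and 324 (2.87%) lower in arterial cells. Without fascia replicate 1 the fit with the skin libraries called 371 genes and without fascia replicate 2 it called 335. This comparison shares its arterial libraries with the one against remaining cells, so the values are given side by side and not counted as agreement.

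Gja4 was at 250 and 144 CPM in arterial cells against 1.05 and 1.93 in venular cells (log2 change 6.47, SE 0.374, edgeR adjusted p = 0.000176). The Notch pathway had 7 of 16 tested genes higher and none lower, beside 3.83% and 2.87% of all genes tested. Its median log2 change was 0.87. Dll4 was at 356 and 179 against 42.5 and 22.2 (2.88, edgeR adjusted p = 0.000176) and Jag2 at 138 and 221 against 48.8 and 52.2 (1.66, 0.00136). Of the receptors, Notch4 was at 212 and 98.7 against 29.2 and 19.2 (2.52, edgeR adjusted p = 0.00042) and Notch1 at 248 and 149 against 91.0 and 74.5 (1.11, 0.00668), though the Notch1 call was lost without fascia replicate 1 (0.86, 0.447). Of the targets, Hey1 was at 296 and 152 against 5.62 and 9.40 (4.42, edgeR adjusted p = 0.00106) and Nrarp, which damps Notch, at 149 and 120 against 49.9 and 31.0 (1.59, 0.00222). Hey2 had only 3 and 1 UMIs in arterial cells and 0 in venular cells and was not tested. Efnb2 was at 104 and 85.3 against 18.3 and 23.3 (2.05, edgeR adjusted p = 0.00155), while its receptor Ephb4, usually a venous marker, was at 138 and 107 against 130 and 101 and was not called (0.997).

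Most genes that led the comparison with remaining cells were also called against venular cells, not all in the same direction. Cdc45 (log2 change 5.66, edgeR adjusted p = 0.000248), Egfl8 (5.08, 0.00023), Fbln5 (5.43, 0.000176) and Slc35f1 (4.39, 0.000366) were higher in arterial cells. Fbln2 was at 190 and 90.7 against 260 and 163 and Cytl1 at 375 and 531 against 1075 and 679, so both were lower in arterial than in venular cells (log2 changes -0.78, edgeR adjusted p = 0.0473, and -1.08, 0.0373). The Fbln2 call was lost without fascia replicate 1 (log2 change -0.99) and without fascia replicate 2 (-0.57). It was also lost in other settings, DESeq2 (-0.77, adjusted p = 0.0838), the stricter gate (-0.67, edgeR adjusted p = 0.209) and thinned cells (-0.20, edgeR adjusted p = 0.831) among them. The Cytl1 call was lost without fascia replicate 1 (-0.50). Eln, at 451 and 205 against 319 and 162, was not called (edgeR adjusted p = 0.476). Vegfc was higher by 0.75 (edgeR adjusted p = 0.0387), a call that was lost without either library (log2 changes 0.86 and 0.67). The Vegfc call was also lost in other settings, DESeq2 (0.76, adjusted p = 0.117) and thinned cells (1.02, edgeR adjusted p = 0.0515) among them.

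Some genes were called in the main fit against venular cells and not against remaining cells. Esm1, a tip cell proteoglycan, was at 498 and 58.7 in arterial, 510 and 127 in remaining and 5.27 and 1.93 in venular cells (log2 change against venular cells 5.82, edgeR adjusted p = 0.0002). Rgcc was at 580 and 280 in arterial, 1083 and 850 in remaining and 42.5 and 36.6 in venular cells (3.24, edgeR adjusted p = 0.000294). Cxcl12, the chemokine, was at 2195 and 2157 in arterial, 2679 and 2741 in remaining and 303 and 443 in venular cells (2.42, edgeR adjusted p = 0.000339). Itm2a was at 429 and 227 in arterial, 482 and 262 in remaining and 13.4 and 11.1 in venular cells (4.50, edgeR adjusted p = 0.000176). Prdm16, a transcriptional regulator, was at 75.4 and 133 in arterial, 45.3 and 40.9 in remaining and 1.76 and 3.86 in venular cells (4.90, edgeR adjusted p = 0.000294), and Cacng3, named as a calcium channel subunit, at 80.8 and 26.7, 122 and 48.1 and 1.76 and 1.42 in the same order (4.67, 0.000339). None of these 6 was called between arterial and remaining cells in the main edgeR fit. Rgcc was called there with DESeq2 (-1.24, adjusted p = 0.000149) and in other edgeR settings, thinned cells (-1.51, edgeR adjusted p = 4.57e-05) among them. Whether the comparisons differ was not tested.

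Of 30 tested vasoactive genes, ion channels and receptors included, 5 were higher and 2 lower than in venular cells. Of all genes tested 3.83% were higher and 2.87% lower, so the lower count holds few genes and is not read as a result. Trpv4 was at 44.9 and 93.3 against 1.05 and 5.28 (log2 change 4.22, edgeR adjusted p = 0.000538), and the potassium channel gene Kcnj2 at 39.5 and 34.7 against 2.81 and 3.35 (3.27, 0.00476). Kcnn4, a calcium-activated potassium channel, had 27 and 13 UMIs in arterial cells against 0 and 2 in venular cells, a ratio of 228 (exact interval 59.0 to 1945, counting error only). The ATP receptor P2ry2 was at 113 and 200 against 17.2 and 29.2 (2.60, edgeR adjusted p = 0.00023) and the endothelin receptor Ednrb at 251 and 125 against 35.5 and 29.6 (2.32, 0.000615). Remaining cells of each library held more Ednrb than arterial cells, at 404 and 245. They held less of P2ry2 (90.8 and 156), Kcnj2 (23.9 and 10.3), Kcnn4 (14.9 and 4.81) and Trpv4 (11.8 and 21.0).

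Guidance, growth factor and TGF-beta genes were called too, where 3.83% of all genes tested were higher and 2.87% lower. The netrin receptor Unc5b was at 43.1 and 16.0 against 1.05 and 0.773 (log2 change 4.68, edgeR adjusted p = 0.00135), a call lost with thinned cells (4.03, edgeR adjusted p = 0.0839). In the guidance list 7 of 22 genes were higher and 1 lower. The lower one, the Slit receptor Robo1, had 2 and 0 UMIs in arterial cells against 77 and 387, a ratio of 20.4 (exact interval 5.61 to 169). Robo1 was low in remaining cells as well, at 4.65 and 1.72 CPM beside 3.59 and 0 in arterial cells. Kdr, the main VEGF receptor, was at 693 and 296 against 109 and 109 (1.93, edgeR adjusted p = 0.00488). Remaining cells held more of it than arterial cells, at 815 and 532. In the BMP and TGF-beta list 8 of 29 genes were higher and 2 lower. Among the higher was the receptor Tgfbr1 (86.2 and 85.3 against 18.3 and 21.9, log2 change 1.91, edgeR adjusted p = 0.00269). Tgfbr1 was at 93.9 and 72.2 in remaining cells, and its call was lost with thinned cells (1.42, edgeR adjusted p = 0.153). Bmp4, a ligand, was lower at 14.4 and 21.3 against 111 and 138 (-2.96, edgeR adjusted p = 0.000366), with remaining cells at 19.2 and 27.8. Of transcription factors, Sox17, an arterial regulator, was at 557 and 637 against 276 and 295 (0.92, edgeR adjusted p = 0.00735), and its call was lost without either fascia library (0.169 and 0.284). Basement membrane genes gave 6 higher and 2 lower of 22, led by the laminin Lama3 at 43.1 and 42.7 against 1.41 and 0.773 (5.13, edgeR adjusted p = 0.000513). In remaining cells Lama3 was at 29.8 and 14.8, Unc5b at 15.2 and 8.25 and Sox17 at 445 and 437, below the arterial levels.

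**Figure D5:**
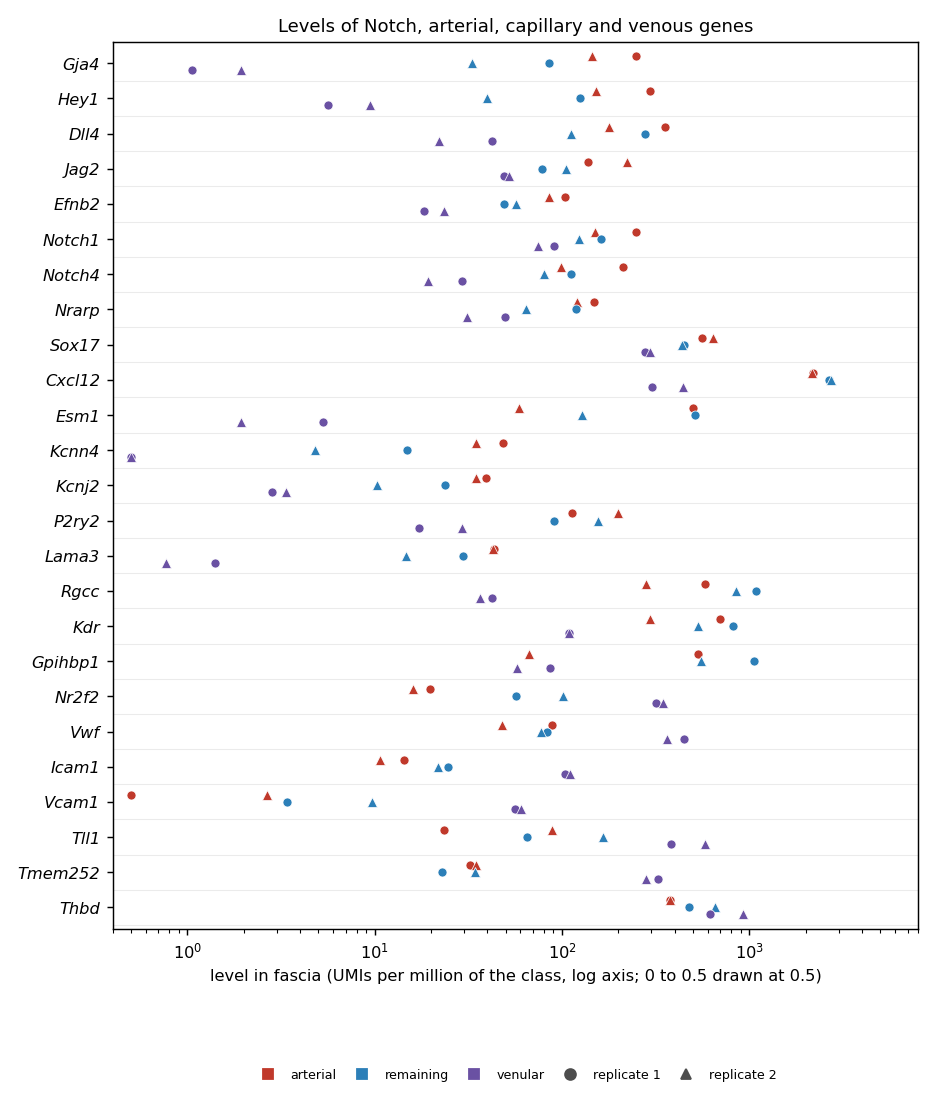
Levels of Notch, arterial, capillary and venous genes in arterial, remaining and venular endothelial cells of fascia, in CPM of the class on a log axis, circles for replicate 1 and triangles for replicate 2. Gja4 is at 250 and 144 in arterial against 1.05 and 1.93 in venular cells and Nr2f2 at 19.8 and 16.0 against 317 and 347.

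The venous list had 11 of 19 tested genes lower and none higher in arterial cells, beside 2.87% and 3.83% of all genes tested. Its median log2 change was -2.00. Nr2f2 was at 19.8 and 16.0 against 317 and 347 (-4.30, edgeR adjusted p = 0.000294). Vwf, the platelet-binding protein of venous endothelium, was at 88.0 and 48.0 against 448 and 361 (-2.69, edgeR adjusted p = 0.000339), with remaining cells at 82.8 and 77.0. The adhesion molecule Icam1 was at 14.4 and 10.7 against 104 and 110 (-3.20, edgeR adjusted p = 0.000458). Vcam1, another, had 0 and 1 UMIs in arterial cells against 160 and 469 in venular cells, a ratio of 55.2 (exact interval 9.88 to 2186). Of 17 tested genes for leukocyte adhesion and chemokines, 3 were lower (Icam1, Vcam1 and Csf1), 2 were higher (Podxl and Cxcl12) and 12 were not called. Tll1, a protease of the BMP1 family, was at 23.3 and 88.0 against 383 and 581 (-3.43, edgeR adjusted p = 0.000463) and Tmem252 at 32.3 and 34.7 against 324 and 279 (-3.31, 0.000344). The list was partly chosen for known venule genes, and the venular cells were cut by Selp, Sele and Ackr1, so its direction follows the way the cells were grouped.

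Several venular genes were not seen in any arterial cell. Samd5, Unc5c and Mpp7 had 0 UMIs in the 77 cells, and with 3 UMIs taken as the floor over both libraries venular cells were at least 46.7-fold, 23.1-fold and 21.0-fold higher. Hdac9, a histone deacetylase, had 2 and 0 UMIs against 444 and 1207, a ratio of 72.5 (exact interval 20.0 to 599). Cmahp had 1 and 0 UMIs against 387 and 799, a ratio of 104 (exact interval 18.7 to 4118), and Ankrd55 was at 5.39 and 8 against 190 and 227 (-5.13, edgeR adjusted p = 0.000612). The haemoglobin gene Hbb-b1 was at 23.3 and 72.0 in arterial cells against 2270.1 and 1814 in venular cells (-5.67, edgeR adjusted p = 0.000265). With marked doublets left out that difference was not called (-3.69, edgeR adjusted p = 0.174), and the 4 erythrocyte genes summed to 52.1 and 139 in arterial and 3758 and 2824 in venular cells. Coagulation genes split, with 2 of 15 tested higher and 5 lower, beside 3.83% and 2.87% of all genes tested. Plat, tissue plasminogen activator, was at 226 and 333 against 82.6 and 75.9 (1.66, edgeR adjusted p = 0.00189), and Thbd, thrombomodulin, at 375 and 379 against 617 and 931 (-1.14, 0.00838). The Thbd call was lost without fascia replicate 2 (0.325).

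In skin the same gate gave 6 and 21 cells. With fewer than 10 cells in skin replicate 1 no test between tissues was made, and the skin values stand beside the fascia ones as they are. Of the 12 leading higher genes of fascia, 11 in skin replicate 1 and all 12 in skin replicate 2 were above the remaining endothelial cells of the same library. Cdc45 was at 606 and 1180 in skin arterial cells against 58.8 and 405, and Gja4 at 349 and 226 against 14.7 and 107. Fbln5 was at 239 and 220 against 39.9 and 103, and Vegfc at 110 and 107 against 12.6 and 49.1. Of the 10 leading lower genes, 3 and 5 were below and 7 and 5 were above, which is a description of few cells with no test. The share of all genes that lay above in each skin library was not computed, so these counts have no background. Angpt2 was below in both, at 0 and 18.8 against 79.8 and 84.2, and so was Ets2, at 257 and 220 against 518 and 442. The immediate early and heat shock list summed to 47302 and 48764 in skin arterial cells, against 22645 and 37287 in the remaining endothelial cells of skin. Keratinocyte genes summed to 3948 and 7259 in the skin arterial cells and to 18.0 and 37.3 in the fascia ones, and their part in the skin values was not tested.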

How the data were processed

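Single-cell RNA was measured in 2 skin and 2 fascia libraries of wild-type rats. Per the submitters' processing notes, reads were processed with Cell Ranger 6.0.1 and STAR, with the builds mRatBN7.2 and GRCh38.p13 named, while the deposited matrix header names Cell Ranger 7.0.0. The authors deposited whole-number UMI counts for 30560 genes, not normalized, and per the labels 3′ reads were made. Libraries held 83852172 to 95777810 UMIs in 40881 barcodes, of which 37722 cells passed 500 genes and 20% mitochondrial UMIs (13 genes).

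Cells were assigned by raw UMI gates. The members and gene lists were chosen with earlier results of these data known. Remaining endothelial cells had at least 5 endothelial UMIs and passed neither the arterial nor the venular threshold, the other exclusions being the same, with fewer than 2 UMIs of lymphatic genes. Counts were summed per library and class and tested with edgeR 4.0.16 in R 4.3.3 (TMM scaling, filterByExpr, library and class as terms, 2 residual degrees of freedom), with Benjamini-Hochberg adjustment over all genes tested without the 16 gate genes. Calls had an adjusted p under 0.05. For edgeR, SE is the absolute log2 change divided by the square root of the test's F statistic, whose spread was moderated over all genes. DESeq2 1.42.0, another size factor, other cell filters, a stricter gate (at least 3 arterial UMIs, comparison cells with 0), thinning to 3000 UMIs, doublets left out (Scrublet in scanpy 1.11.5) and fits with a fascia library left out were alternatives. The fit against remaining cells was also run on simulated counts with an assumed spread. It called 26 of 99 changes of 2-fold and 71 of 99 of 4-fold, with 4 false calls. A gene that was not called is thus not shown to be unchanged. Doublets were kept because the rule does not mention them. The replicate numbers of the labels pair classes of 1 library, since both classes came from the same cell suspension.

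The rule for named genes took up to 12 of the largest called changes in each direction against remaining cells (39 higher and 10 lower were eligible) and 8 in each direction against venular cells. These genes had a symbol, at least 50 CPM in the higher class, no overlap of libraries and at least 0.2 of the level of the highest fascia class. Up to 6 called genes of each list and genes of textbook role could be added. Cd36, one of the latter, was not analysed here. Exact binomial intervals cover counting error only, and ratios with 1 to 3 UMIs carry exact intervals.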

Additional observations from a re-analysis of the deposited data

Results flagged for a closer look

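In 4 genes that were lower in fascia arterial than in remaining endothelial cells, each skin library had the opposite direction. The difference between tissues was not tested, since skin replicate 1 has 6 arterial cells. Atf3 was at 3232 against 818 in skin replicate 1, a difference of 2414 CPM, and at 2361 against 2073 in skin replicate 2, while fascia had 147 against 324 and 93.3 against 279. Fosb was at 2002 against 943 in skin replicate 1, a difference of 1059, and at 3717 against 2104 in skin replicate 2. Gadd45g was at 1432 against 463, a difference of 969, and at 1846 against 1662. Zfp36 was at 1047 against 746, a difference of 301, and at 2907 against 2264.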

How the results depend on the processing

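Against remaining endothelial cells, the count of 57 called genes was 125 with DESeq2, 312 with no low-count filter and 208 with the stricter gate. It was 160 with cells thinned to 3000 UMIs and 23 with no replicate block. With cells of 10 or more UMIs of Col1a1, Col3a1 and Pdgfra left out it was 202. With 1 fascia library left out and the skin libraries in the fit it was 58 to 71, and with other scaling, other cell filters or all 4 libraries in the fit 48 to 68. All 57 calls kept their direction in every setting in which they were tested, 55 of them being tested with fibroblast cells out. Against venular cells, the count of 757 was 1190 with no low-count filter, 586 with no replicate block and 335 to 371 with 1 fascia library left out. With no replicate block 23 of the 57 calls against remaining cells and 569 of the 757 against venular cells held. Among named genes, which were partly picked for large changes, 13 of 28 and 63 of 66 held. With thinned cells 409 of the 757 calls against venular cells held, 712 of them being still tested. The arterial share moved to 8.03% and 3.91% in fascia and 7.47% in skin replicate 2 with no thinning, and at 2000 UMIs to 0 in skin replicate 1 (an interval up to 3.59%) and 0.787% in skin replicate 2. The cause of these shifts was not tested. The planned tests between tissues gave no value, since skin replicate 1 had fewer than 10 arterial cells.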

Other observations

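The neuropeptide gene Avp, chosen after its values were seen, had 16 and 18 UMIs in the arterial cells of fascia replicates 1 and 2, 14 and 10 in the remaining endothelial cells and 0 and 1 in venular cells. Its level was 28.7 and 48.0 against 4.34 and 3.44 in remaining cells (edgeR adjusted p = 0.0583). The adjacent hormone gene Oxt, which is the protein-coding neighbour of Avp in RefSeq's GRCr8, had 0 UMIs in all 3 classes. Mrps26, a mitochondrial ribosome gene on the other side of Oxt, was at 228 and 320 against 70.7 and 67.7 in remaining cells (log2 change 1.92, SE 0.17, edgeR adjusted p = 0.00848). RNA of neighbouring genes cannot be told apart in these counts.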
